A study of Mus musculus with 7 samples.

Results

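A set of 9 cardiac potassium channel genes was followed through the hearts of NSG-DR1 mice that had or had not received human CD4+ T cells. The 9 members were Kcnh2, Kcnq1, Kcnd2, Kcnd3, Kcna5, Kcnj3, Kcnj8, Kcnj11 and Abcc9, and they were taken as the rows of the deposited count table that carry these symbols. All 9 were found among the 20343 genes of the table. All 9 also passed the filter on low counts that left 7667 genes for testing, with between 486 and 21085 counts in every heart.

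RNA sequencing of polyadenylated RNA was done on tissue from the apex of the heart. Every mouse carried the strain label NSG-DRB1*0101, that is, an immunodeficient NSG background (NOD, scid, lacking the common gamma chain) with a human HLA-DR1 transgene. The 4 control mice were untreated, and the 3 transferred mice had been given human CD4+ T cells 6 weeks earlier. The NSG background has almost no lymphocytes of its own, the control mice received no cells at all, and the age and sex of the mice are not given in the sources used here, nor is whether the 3 transferred mice received cells of the same donor. The labels name no litter, batch or day that pairs hearts across the groups, although the identifiers of the animals take different forms, and each library is taken as 1 mouse, so the p-values measure the spread between these 7 samples.

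Cardiac potassium channels end each heartbeat electrically. Voltage-gated channels open during the action potential and carry the outward currents that repolarise the myocyte, whereas inward rectifiers hold the resting potential or couple it to metabolism and to neurotransmitters. A mouse ventricle repolarises quickly, mainly through the fast transient outward current, while larger mammals rely more on the delayed rectifiers made by Kcnh2 and Kcnq1.

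What joins 8 of the 9 genes is a shared pore. The reading frames were searched for the signature of the potassium selectivity filter, which is threonine or serine, then a branched aliphatic residue (valine, isoleucine or, after threonine, leucine), glycine, tyrosine or phenylalanine, and glycine. It was found exactly once in each of the 8 and not in Abcc9, whose protein is a regulatory partner and not a pore. The coding stretches around it in Kcnh2, Kcnq1, Kcnd2, Kcna5, Kcnj3, Kcnj8 and Kcnj11 are shown 5′ to 3′ on the coding strand, from GENCODE M21 transcripts (build GRCm38), because they define the family. The 15 bases in capitals are the 5 signature codons.
Kcnh2: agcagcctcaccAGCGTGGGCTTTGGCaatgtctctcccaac
Kcnq1: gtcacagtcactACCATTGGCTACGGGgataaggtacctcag
Kcnd2: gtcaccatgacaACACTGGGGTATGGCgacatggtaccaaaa
Kcna5: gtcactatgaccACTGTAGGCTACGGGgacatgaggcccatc
Kcnj3: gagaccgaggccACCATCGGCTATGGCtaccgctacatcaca
Kcnj8: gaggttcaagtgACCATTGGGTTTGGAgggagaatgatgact
Kcnj11: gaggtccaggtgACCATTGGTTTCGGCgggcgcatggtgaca

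The fourth signature codon encodes phenylalanine in Kcnh2, Kcnj8 and Kcnj11, 3 of the 8 pore genes, and tyrosine in the other 5. In 6 genes the stretch lies within 1 exon: Kcnh2 at chr5:24325540-24325581 (minus strand, exon 7), Kcnq1 at chr7:143191420-143191461 (plus, exon 7), Kcna5 at chr6:126533730-126533771 (minus, exon 1), Kcnj3 at chr2:55437615-55437656 (plus, exon 2), Kcnj8 at chr6:142566433-142566474 (minus, exon 3) and Kcnj11 at chr7:46099481-46099522 (minus, exon 1). In Kcnd2 (plus strand) an intron interrupts it between exons 1 and 2, with outer bases at chr6:21217394 and chr6:21714156.

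Of the members, 4 lie on chromosome 6, namely Kcnd2, Kcna5, Kcnj8 and Abcc9. The count table (GRCm38) places Kcnj8 at 142564837 to 142571614 and Abcc9 at 142587862 to 142702766, with 16247 bases between them and both on the minus strand. Kcnj11 (chromosome 7, 46097123 to 46100952) has Abcc8, the gene of the other sulphonylurea receptor, 3570 bases away.

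Levels are given as CPM, the counts of a gene relative to all counts of its heart, scaled between hearts by the trimmed mean of M values (TMM). The libraries held 16402194 to 25190580 counts over the analysed part of the genome, and 3 counts corresponded to at most 0.189 CPM. Myocyte markers dominated, with Atp2a2 (the sarcoplasmic calcium pump) at 27164 CPM and Myl2 (ventricular myosin light chain) at 19968 CPM on average. The defining atrial gene Bmp10 was at 0.30 CPM or below in every heart, whereas Nppa, a natriuretic peptide gene of atrial and stressed ventricular myocytes, ranged from 946 to 4151 CPM. Macrophage markers differed between the groups: 10 of 14 listed genes were tested, C1qb and Mrc1 rose by 0.98 and 0.77 on the log2 scale (edgeR adjusted p = 0.0384 for each), C1qa and C1qc had an adjusted p of 0.0618, and the summed level was 477 to 699 CPM in control and 833 to 1201 CPM in transferred hearts. Both calls were lost in 9 of 18 alternatives, namely limma-voom, the identifier form as a covariate, the hearts with a number alone, and the fits without control heart 1, 2, 3 or 4 or transferred heart 1 or 2. The adjusted p reached 0.157, while the log2 difference stayed above 0 in all 18 (0.86 to 1.10 for C1qb, 0.69 to 0.87 for Mrc1). In the cardiomyocyte, endothelial (Fabp4, Cav1), fibroblast (Gsn, Col3a1) and mural (Rgs5, Art3) lists 0 of 10, 0 of 10, 0 of 6 and 0 of 7 tested genes passed. The part of macrophages in the member values was not tested.

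None of the 9 members passed the threshold for a difference between transferred and control hearts. In the edgeR quasi-likelihood test over all 7667 genes, 0.235% of genes had an adjusted p under 0.05, and 0 of 9 members did. At an unadjusted p under 0.05 the count was again 0 of 9, against 12.4% of all tested genes. Without transferred heart 3 it was 1 of 9, beside 1046 genes over the whole table, and in every other alternative it was 0. The ranges of the groups overlapped for all 9 members, against 11.2% of tested genes with no overlap. DESeq2, which called 3.35% of all genes, also called 0 members. Limma-voom called 0 genes over the whole table, so its count of 0 members could not come out otherwise. Log2 fold changes lay within 0.19 of 0, and their median was -0.0064, with 5 of 9 (55.6%) below 0, where all tested genes had a median of -0.0020 and 50.3% below 0. The adjusted p of the members ran from 0.491 to 0.980.

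**Figure D1:**
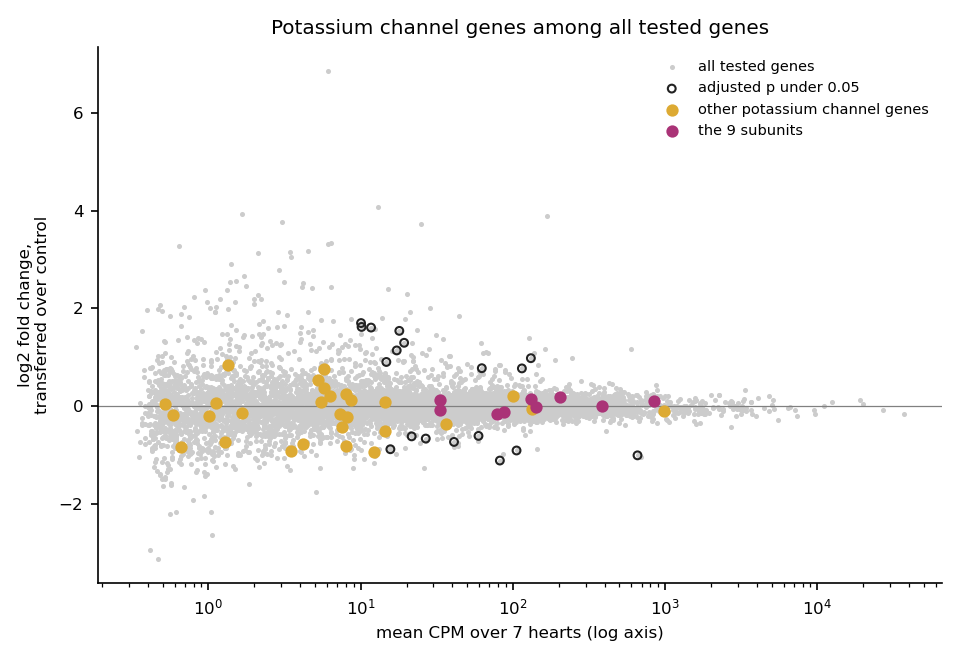
Mean CPM over the 7 hearts (log axis) against the log2 fold change of transferred over control hearts for all 7667 tested genes, with genes past the adjusted threshold as open circles. The 9 subunits sit within 0.19 of 0 on the log2 scale, and none is an open circle.

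The transient outward current comes from Kcnd2 and Kcnd3, which encode Kv4.2 and Kv4.3. In control hearts Kcnd2 was at 79.4, 77.1, 80.8 and 91.1 CPM, and in transferred hearts at 71.1, 69.9 and 78.8 CPM. Transferred hearts 1 and 2 lay below every control heart and the third lay inside the control range. The means were 82.1 ± 6.19 (SD, n = 4) against 73.3 ± 4.83 (SD, n = 3), and the fitted log2 difference was -0.16, SE 0.08 (edgeR adjusted p = 0.491). This was the lowest p among the members, 0.0831 before adjustment. The 95% interval of the fold ran from 0.783 to 1.02, or -21.7% to 1.81% as a change. Without control heart 4 the fitted log2 difference was -0.11, and without transferred heart 3 it was -0.22.

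Kcnd3 was at 37.4, 34.9, 33.4 and 30.7 CPM in control hearts and at 31.4, 30.7 and 34.1 CPM in transferred hearts. Every transferred value lay within the control range. The fitted log2 difference was -0.09, SE 0.10 (edgeR adjusted p = 0.781), and the 95% interval of the fold ran from 0.809 to 1.09. Without control heart 1 it was -0.038 and without transferred heart 2 it was -0.057, whereas without control heart 4 or transferred heart 3 it was -0.13. The noncoding gene Kcnd3os overlaps it on the other strand and held only 5 to 21 counts. The strand setting of the counting is not given in the sources used here, so reads shared between overlapping genes cannot be assigned.

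Kcnh2 (ERG, the rapid delayed rectifier) was at 177.7, 215.8, 212.7 and 164.7 CPM in control hearts and at 217.6, 237.4 and 204.6 CPM in transferred hearts. Control hearts 1 and 4 were low and the others lay among the transferred values. The mean was 192.7 ± 25.5 CPM (SD, n = 4) against 219.9 ± 16.5 CPM (SD, n = 3). On the log2 scale the fitted difference was 0.19, SE 0.11 (edgeR adjusted p = 0.537), and 0.12 without control heart 4. The 95% interval of the fold ran from 0.964 to 1.35.

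Kcnq1 (the slow delayed rectifier) was at 117.2, 122.9, 126.2 and 136.2 CPM in control hearts and at 125.8, 160.5 and 129.9 CPM in transferred hearts. Transferred heart 2 stood above the rest, and transferred hearts 1 and 3 lay inside the control range. Fitted on the log2 scale, the groups differed by 0.14, SE 0.10 (edgeR adjusted p = 0.614), and it was 0.03 without transferred heart 2. The 95% interval of the fold over all 7 hearts was 0.948 to 1.29. Kcnq1 shares its locus with the antisense transcript Kcnq1ot1, which held 13 to 64 counts beside 2159 to 3412 for Kcnq1.

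Kcna5 (Kv1.5, the ultrarapid current) was the most variable member. It was at 27.3, 35.6, 31.5 and 32.6 CPM in control hearts and at 28.6, 47.7 and 28.3 CPM in transferred hearts. Transferred heart 2 was the highest of all, and transferred hearts 1 and 3 were lower than 3 of the 4 control hearts. The SD over transferred hearts was 31.95% of their mean, against 10.8% in control hearts. In control hearts Kcnh2 (13.2%) and Kcnj3 (11.4%) varied more than Kcna5. The fitted log2 difference was 0.13, SE 0.19 (edgeR adjusted p = 0.831) with all hearts and -0.16 without transferred heart 2 (edgeR adjusted p = 0.784). The 95% interval of the fold with all hearts was the widest of the members, 0.822 to 1.46.

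**Figure D2:**
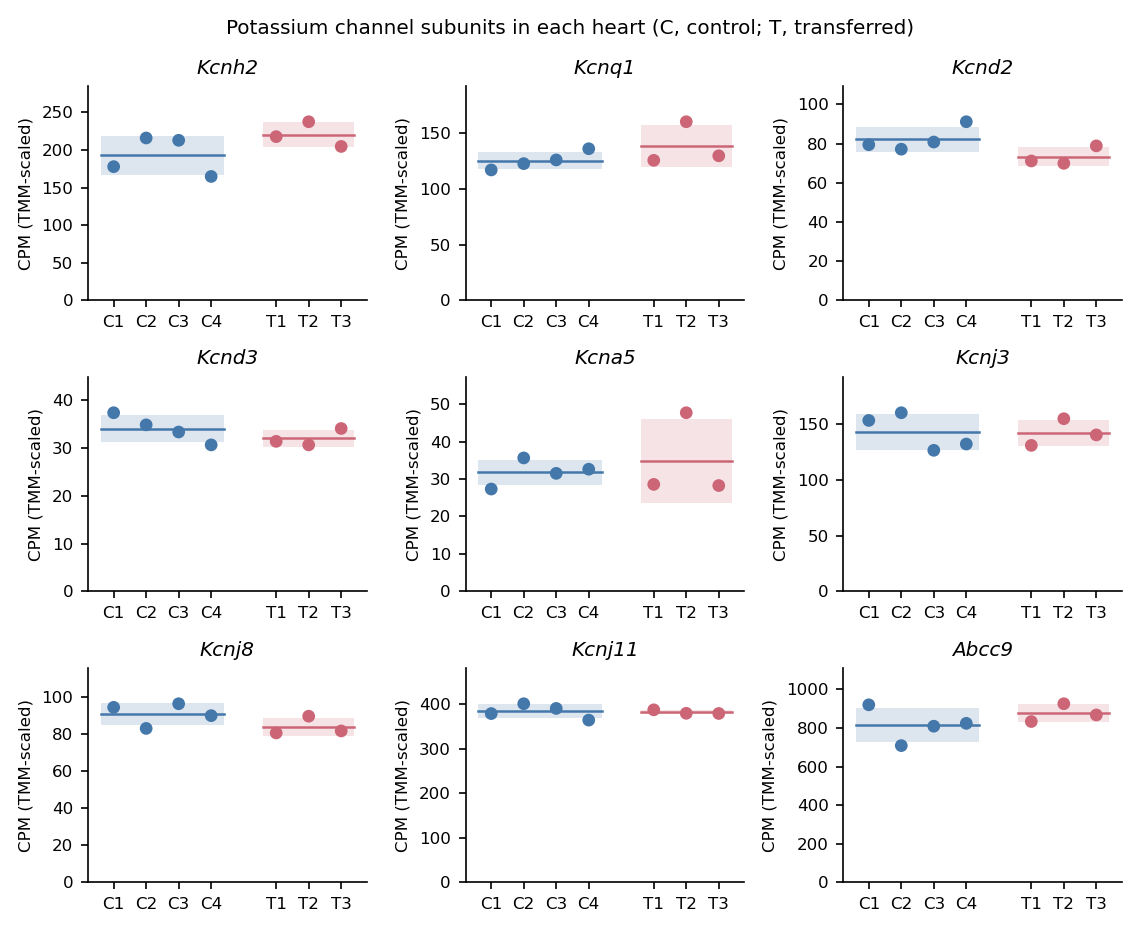
TMM-scaled CPM of each member in each heart (C1 to C4, control; T1 to T3, transferred), with the group mean as a line and 1 SD as a band. The groups overlap in all 9 panels, and transferred heart 2 is highest for Kcnh2, Kcnq1, Kcna5 and Abcc9.

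Transferred heart 2 held the highest value of the 7 hearts for 4 of the 9 members and the lowest for 1, Kcnd2. That heart also held the highest level of Vwf (von Willebrand factor, an endothelial gene), 381 CPM against 177 and 159 CPM in the other transferred hearts and 90.9 to 138 CPM in control hearts (edgeR adjusted p = 0.200). It held the lowest level of Nppa, 946 CPM, and of Kdr, another endothelial gene, 541 CPM. Fabp4 (1467 CPM), Cav1 (1115 CPM) and Sox17 (28.7 CPM), also on the endothelial list, were highest in that heart. The other tested genes of that list were neither highest nor lowest there. The genes named here were picked after their values were seen. The summed level of the 10 endothelial markers in the table was 3713 to 4231 CPM over control and 3694 to 4699 CPM over transferred hearts. Transferred heart 2 held the highest sum. The part of endothelial cells in the member values was not tested.

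The ATP-sensitive channel couples the membrane potential to energy supply. Pore subunits, encoded by Kcnj11 (Kir6.2) or Kcnj8 (Kir6.1), assemble with sulphonylurea receptors, which are encoded in heart mainly by Abcc9 (SUR2). Kir6.2 with SUR2 is the classical ventricular myocyte form, and Kir6.1 with SUR2 is known from pericytes and vascular smooth muscle.

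Kcnj11 was the steadiest member. It was at 379.1, 401.3, 390.7 and 364.5 CPM in control hearts and at 387.6, 379.8 and 379.4 CPM in transferred hearts. All transferred values lay inside the control range. The mean was 383.9 ± 15.8 CPM (SD, n = 4) against 382.2 ± 4.63 CPM (SD, n = 3). On the log2 scale the fitted difference was -0.0064, SE 0.07 (edgeR adjusted p = 0.980), and turned to 0.0079 with scaling by column totals. The 95% interval of the fold, 0.897 to 1.11, spans changes from -10.3% to 10.5%.

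Kcnj8 was at 94.3, 82.97, 96.3 and 89.9 CPM in control hearts and at 80.5, 89.6 and 81.6 CPM in transferred hearts. Transferred hearts 1 and 3 lay below all control hearts and transferred heart 2 among them. The mean was 90.9 ± 5.91 CPM (SD, n = 4) against 83.9 ± 4.93 CPM (SD, n = 3). Fitted on the log2 scale, the groups differed by -0.11, SE 0.08 (edgeR adjusted p = 0.619), and the 95% interval of the fold ran from 0.816 to 1.05. Of 18 mural cell markers 7 were tested and 0 passed, the median log2 fold change was -0.10, and Rgs5, a pericyte marker, had -0.20 (edgeR adjusted p = 0.409). The summed level of these 7 genes was 2188 to 2472 CPM in control hearts and 1862 to 2188 CPM in transferred hearts, so that every transferred heart lay below every control heart, the nearest by less than 1 CPM. Rgs5 (1300 CPM on average) and Art3 (671 CPM) made up most of that sum. Taken singly, 0 of the 7 genes had groups that did not overlap, against 11.2% of all tested genes. In whole tissue, fewer cells of a type and less RNA per cell cannot be told apart, and a part of the mural cells in the Kcnj8 values was not tested.

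Abcc9 had the most counts of the members. It was at 920.2, 708.8, 809.4 and 824.2 CPM in control hearts and at 833.6, 925.8 and 867.6 CPM in transferred hearts. The groups overlapped, with control heart 1 among the transferred hearts. The fitted log2 difference was 0.10, SE 0.10 (edgeR adjusted p = 0.732), and the 95% interval of the fold ran from 0.924 to 1.25. Without control heart 1 it was 0.17, without control heart 2 it was 0.041, and without transferred heart 2 it was 0.061. Counts cover the gene as a whole, so the SUR2A and SUR2B splice forms are not separated.

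Kcnj3 (Kir3.1, a subunit of the acetylcholine-gated channel, best known from atria and nodes) was at 153.4, 160.3, 126.6 and 132.2 CPM in control hearts and at 131.0, 154.9 and 140.4 CPM in transferred hearts. The transferred values lay wholly inside the control range. On the log2 scale the fitted difference was -0.01, SE 0.10 (edgeR adjusted p = 0.979), and it turned to 0.0096 with scaling by column totals. The 95% interval of the fold was 0.847 to 1.16. Beside it, conduction markers (5 tested of 9, among them Tbx3 and Gja5) had 0 genes past the threshold and summed to 55.1 to 84.1 CPM in control and 74.4 to 109 CPM in transferred hearts. The 6 atrial markers in the table, 5 of them tested, summed to 2311 to 3950 CPM in control and 1070 to 4286 CPM in transferred hearts. Nppa, also a gene of stressed ventricular myocytes, made up most of the atrial sum, at 2862 CPM on average against 56.1 CPM for Stard10, the next most abundant. The part of conduction or atrial tissue in the Kcnj3 values was not tested.

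**Figure D3:**
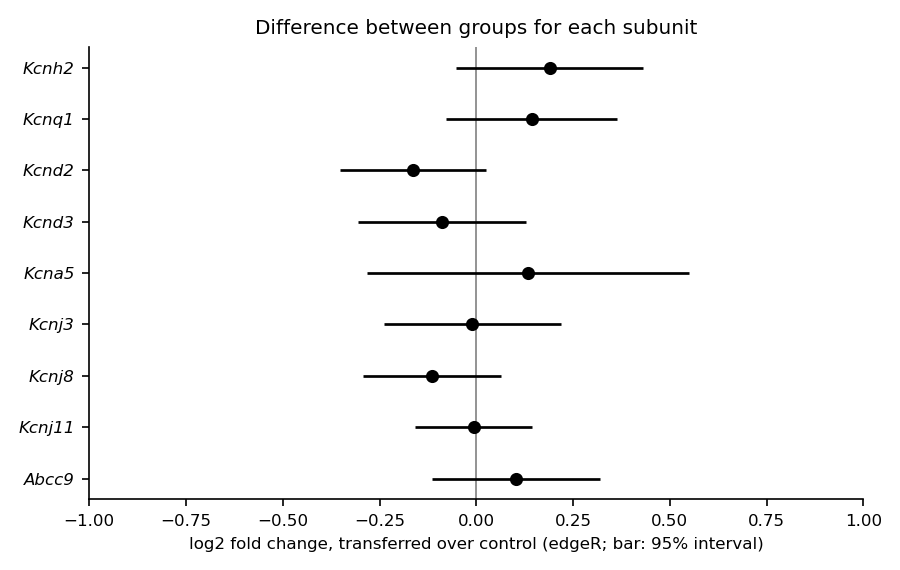
Log2 fold change of transferred over control hearts for each of the 9 members (edgeR quasi-likelihood fit), with bars for the 95% interval. Every bar crosses 0, the narrowest is that of Kcnj11 and the widest that of Kcna5.

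The order of the members was read from CPM per kilobase of combined exon length, since long genes collect more reads. Kcnj11 (111.4) and Abcc9 (103.8) led, and their ranges over the 7 hearts overlapped. Kcnh2 (39.6), Kcnq1 (36.9) and Kcnj8 (34.5) followed, also with overlapping ranges. Kcnd2 (14.8), Kcnj3 (12.8) and Kcna5 (11.0) overlapped each other, and Kcnd3 came last at 4.25 CPM per kilobase. Of the 8 steps between neighbours, 3 showed no overlap: Abcc9 over Kcnh2 by 2.62-fold, Kcnj8 over Kcnd2 by 2.34-fold and Kcna5 over Kcnd3 by 2.59-fold.

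**Figure D4:**
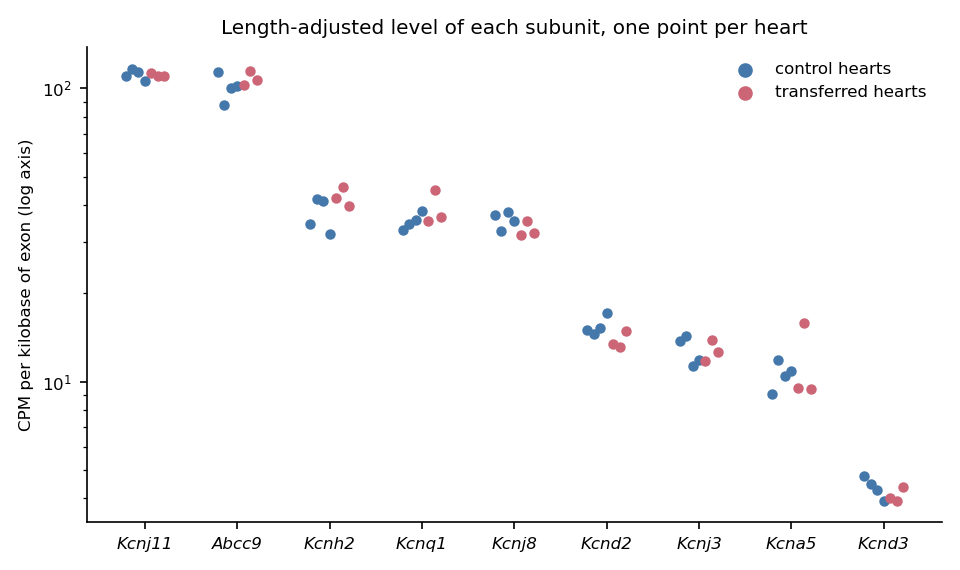
CPM per kilobase of combined exon length (log axis) for each member, with 1 point for each heart. The levels fall in tiers, with Kcnj11 and Abcc9 near 100 and Kcnd3 near 4, and control and transferred hearts intermix in each.

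The order depended on the length used. With coding length in place of exon length, Kcnj11 (328) and Abcc9 (181) still led, but Kcnj3 moved from the seventh place to the third (94.9 CPM per kilobase), since its combined exons span 11.2 kb and its coding bases 1503. The ranges of Kcna5 and Kcnd3 then overlapped. With the length of 1 GENCODE transcript per gene, Abcc9 (135.4) and Kcnj11 (122.0) led in the opposite order, and Kcna5 (11.6) came last, below Kcnd3 (15.8). Kcnd3 then also stood above Kcnd2 (15.2), with overlapping ranges. The Kcnd3 transcript used has 2102 bases, of which 1965 are coding. Both alternatives were chosen after the data were seen.

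Within each heart, ratios of counts compare subunits free of library scaling. The size of such a ratio also carries the gene lengths, so only its shift between hearts is read. The ratio of Abcc9 to Kcnj8 was 9.75, 8.54, 8.41 and 9.17 in control hearts and 10.4, 10.3 and 10.6 in transferred hearts. All transferred hearts lay above all control hearts, a mean difference of 0.22 on the log2 scale against SDs of 0.10 (n = 4) and 0.02 (n = 3). Of the 5 ratios computed, this was the only one in which the groups did not overlap. Among all pairs of tested genes with a mean of at least 10 CPM, 12.2% had ratios that did not overlap between the groups, so such a separation is common in these data. No test was made, because the members were chosen with earlier results known.

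The remaining ratios overlapped. The range of Kcnd2 to Kcnd3 was 2.12 to 2.97 over control and 2.26 to 2.31 over transferred hearts. Kcnj8 to Kcnj11 ran from 0.207 to 0.249 and from 0.208 to 0.236, in the same order of groups. For Abcc9 to Kcnj11 the ranges were 1.77 to 2.43 and 2.15 to 2.44, and for Kcnh2 to Kcnq1 they were 1.21 to 1.76 and 1.48 to 1.73.

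**Figure D5:**
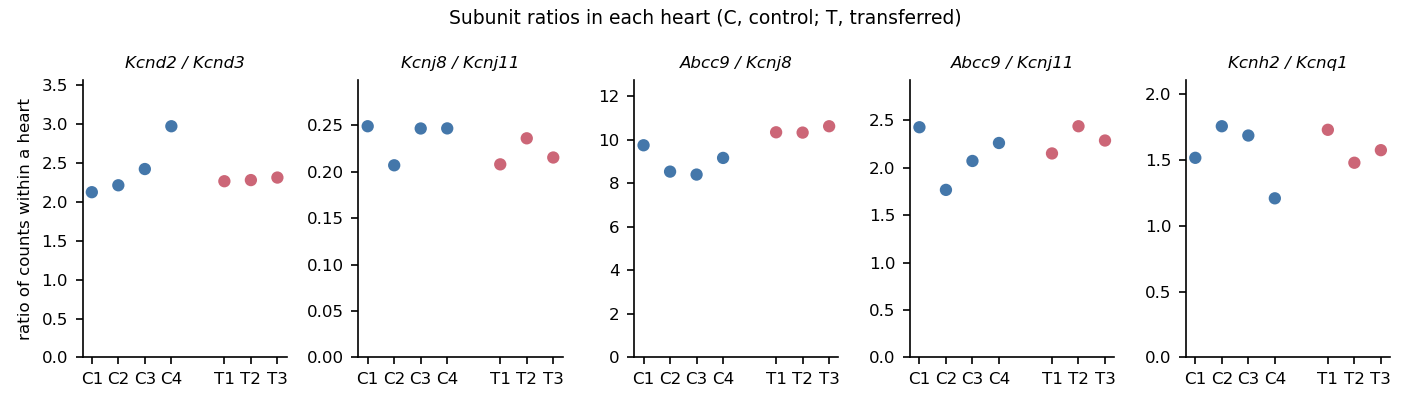
Ratio of counts of 2 subunits within each heart (C1 to C4, control; T1 to T3, transferred) for the 5 pairs. Transferred hearts lie above control hearts for Abcc9 / Kcnj8, from 10.3 to 10.6 against 8.41 to 9.75, and overlap them for the other pairs.

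The identifiers of the animals take different forms: those of the first heart of each group begin with letters, and those of the other 5 are numbers alone. In the hearts with numbers alone, the differences of mean log2 CPM were 0.17 for Kcnh2, 0.17 for Kcnq1, -0.16 for Kcnd2, -0.03 for Kcnd3, 0.14 for Kcna5 and -0.07 for Kcnj8. Between the hearts whose identifiers begin with letters, 1 of each group and so without a test, they were 0.29, 0.10, -0.16, -0.25, 0.06 and -0.23 in that order. For 3 members the sign differed between the forms. Abcc9 differed by 0.20 and -0.14, Kcnj3 by 0.09 and -0.23, and Kcnj11 by -0.02 and 0.03. What the letters stand for is not given in the sources used here.

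The rest of the potassium channel family was read from lists of 92 further genes, of which 43 were in the analysed part of the table and 28 were tested. By the edgeR test 0 of the 28 passed the adjusted threshold, 7 (25.0%) had an unadjusted p under 0.05, and in 4 (14.3%) the groups did not overlap, close to the 11.2% of all tested genes. Without transferred heart 2 the 7 became 4, and it was 5 to 9 without any other single heart. Of those 7 genes 2 were higher and 5 lower in transferred hearts, where 7.17% of all tested genes were higher and 5.27% lower by the same rule. The median log2 fold change of the 28 was -0.11. By DESeq2, 2 of the 28 genes passed the adjusted threshold, Kcnj14 and Kcnk2, where it called 3.35% of all genes with an adjusted p (252 of 7516). The 15 untested genes had means of at most 0.364 CPM. By list, 4 of 12 other voltage-gated pore genes had an unadjusted p under 0.05 (1 higher, 3 lower), as did 1 of 6 auxiliary genes (higher), 1 of 3 genes on the list of other inward rectifiers and Abcc8 (lower), 1 of 3 leak channel genes (lower) and 0 of 4 genes of calcium- or sodium-activated channels.

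Of the most abundant genes of these lists, by the fixed rule, none passed the adjusted threshold in edgeR. Kcnk3 (TASK-1, a background leak channel) was at 1011 ± 124 CPM (SD, n = 4) in control and 947 ± 120 CPM (SD, n = 3) in transferred hearts (edgeR adjusted p = 0.815), and at 258 CPM per kilobase it lay above all members. Abcc8 was at 94.5 ± 4.70 and 108 ± 13.6 CPM, a fitted log2 difference of 0.20 (edgeR adjusted p = 0.439). Its 15.5 CPM per kilobase compared with 103.8 for Abcc9. Among auxiliary subunits, Kcne4, Kcnab1 and Kcnip3 averaged 8.66, 8.14 and 5.46 CPM, with log2 fold changes of 0.12, -0.21 and 0.08. The leak channel gene Kcnk6 (14.5 CPM), the sodium-activated Kcnt2 (8.02 CPM) and the calcium-activated Kcnn3 (5.74 CPM) had log2 fold changes of 0.08, 0.25 and 0.37. Kcnj10 (1.67 CPM) and Kcnt1 (0.657 CPM), the last of those the rule names, had -0.14 and -0.83 (edgeR adjusted p = 0.895 and 0.563).

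The 7 channel genes with an unadjusted p under 0.05 include Kcna7, Kcna1, Kcnk2 and Kcnj14, which are among the most abundant of their lists, and Kcna4, Kcnc1 and Kcnab2, which were named after their values were seen, as was Kcne3. Kcnk2 (TREK-1, a stretch-sensitive leak channel) was at 14.4, 17.7, 18.4 and 15.5 CPM in control hearts and at 11.3, 10.7 and 13.0 CPM in transferred hearts. All transferred hearts lay below all control hearts, and the fitted log2 difference was -0.50, SE 0.14 (edgeR adjusted p = 0.171, DESeq2 adjusted p = 0.0402). Kcnj14 (Kir2.4, an inward rectifier) was at 15.6, 11.8, 14.9 and 18.7 CPM in control hearts and at 10.4, 4.66 and 8.94 CPM in transferred hearts. It too was lower in every transferred heart, and the fitted log2 difference was -0.93, SE 0.26 (edgeR adjusted p = 0.185, DESeq2 adjusted p = 0.0206). Kcna7 (a Shaker-type channel) averaged 40.1 ± 3.75 CPM (SD, n = 4) against 31.1 ± 3.18 CPM (SD, n = 3) with no overlap (edgeR adjusted p = 0.202). The auxiliary subunit Kcne3, at 1.56 ± 0.209 and 0.933 ± 0.365 CPM, was the fourth gene with no overlap (edgeR adjusted p = 0.426).

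Kcna1 and Kcnc1, channels also known from nerve, had log2 fold changes of -0.83 and -0.78 (edgeR adjusted p = 0.318 and 0.392). Beside them, the summed level of 4 nerve markers was 16.7 to 29.2 CPM in control hearts and 10.3 to 17.5 CPM in transferred hearts, of which only Dbh (dopamine beta-hydroxylase) was tested, and Th was at 0 in every heart. A part of nerve fibres in these values was not tested. The higher genes were Kcna4 (Kv1.4, the slow transient outward channel) with 0.75 and Kcnab2, a beta subunit, with 0.54 (edgeR adjusted p = 0.325 and 0.369). Kcnip2, Kcnj2 and Kcne1, central partners in ventricular repolarisation, are not analysed here.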

How the data were processed

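RNA sequencing counts of 7 mouse hearts, 4 control and 3 transferred, were grouped by the treatment in the labels and numbered in accession order. The authors deposited 1 table of estimated counts per gene, not normalized, with a combined exon length. Per the submitters' processing notes, bcl2fastq 2.20.0.422, cutadapt 2.5, STAR 2.7.2b, featureCounts 1.6.4, DESeq2 1.22.2 and the build GRCm38.p6 were used, with no role or settings given. Of the values 4.63% were fractional (4 of the 63 member values), and counts were rounded. The table as analysed held 20343 complete rows, chromosomes 1 to 7 and the start of 8, and 1 unfinished row was left out, so column totals are not library depth.

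Genes were filtered with filterByExpr, scaled by TMM and tested with the edgeR 4.0.16 quasi-likelihood test (robust, R 4.3.3), with Benjamini-Hochberg adjustment over all tested genes and a threshold of 0.05. Standard errors come from the F statistic and 95% intervals use its degrees of freedom. The procedure was tested on simulated data. Alternatives used DESeq2 1.42.0, limma-voom (limma 3.58.1), other scalings and filters, identifier form and left-out hearts. The members, the gene lists and the rule for named genes (all members, genes past the threshold, the 3 most abundant tested genes of each channel list and the 2 of each marker list) were chosen with earlier results of these data known. Some items that the rule selects are not reported here. Same-group libraries differed by 17.4 to 77.2 chi-square units per degree of freedom over 9 pairs, more than counting noise alone gives, so no library was counted as a repeat deposit of another.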

Additional observations from a re-analysis of the deposited data

Results flagged for a closer look

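The control group of 4 hearts was checked for a heart far from the other 3 in 14 values, the 9 member levels and the 5 ratios, and 1 was marked where chance marks about 1 in 20. The ratio of Kcnj8 to Kcnj11 of control heart 2 was 0.207, while control hearts 1, 3 and 4 had 0.246 to 0.249. That heart held the lowest Kcnj8 (82.97 CPM) and the highest Kcnj11 (401.3 CPM) of the control hearts, and the ratio lay close to those of transferred hearts 1 and 3, at 0.208 and 0.215.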

How the results depend on the processing

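The count of 0 called members held in all 18 alternatives, and 153 of the 162 member values kept their direction and side of the threshold. Where an alternative called 0 genes over the whole table, the 0 members and the side of the threshold were fixed in advance. Those alternatives are named below. The 9 reversals were all in members near 0 or in Kcna5. Kcnj3 became 0.0096 with column totals, 0.088 in only the hearts with a number alone, and ranged from -0.076 to 0.049 over the fits that each left out 1 heart. Kcnj11 became 0.0079 with column totals and ranged from -0.030 to 0.016 over the left-out hearts, and Kcna5 ranged from -0.16 to 0.26. Column totals moved the median gene by 0.015, more than the size of the Kcnj3 and Kcnj11 values, and the cause of the other shifts was not tested. Against 18 genes called over the whole table, column totals gave 35, a test of every gene with 1 count or more gave 81, DESeq2 gave 252, limma-voom 0, the identifier form as a covariate 0 and only hearts with a number alone 0 (907, 973 and 1054 at an unadjusted p under 0.05), and leaving out 1 heart gave from 0 (control 1, 2 or 4 or transferred 2) to 140 (transferred 3), with 1 without control 3. Of the other potassium channel genes, 0 were called except with DESeq2, which called 2. The planned coding length from a protein table was not run, and coding lengths from GENCODE transcripts were used in its place. No paired analysis was possible because the labels share only 1 number between the groups. At 3 or 4 hearts a group, the upper ends of the member intervals run from 1.81% (Kcnd2) to 46.3% (Kcna5) and the lower ends from -21.7% (Kcnd2) to -3.55% (Kcnh2), and differences inside them could not be told from 0.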
